A study of Mus musculus with 12 samples.

Results

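The genes described are those of fat absorption and lipoprotein assembly, 10 of the 23790 genes in the deposited tables: Fabp1, Fabp2, Apoa1, Apoa4, Apob, Mttp, Cd36, Dgat1, Dgat2 and Mogat2. They were taken by symbol from a fixed list of fatty acid binding, apolipoprotein and triglyceride assembly genes, and all 10 were found. The study asked what the C15ORF48 gene and miR-147, which come from a shared locus, do to gene expression in colonocytes, the epithelial cells of the colon. Stranded RNA-seq of polyadenylated RNA was made from 12 mouse libraries in 4 groups of 3. They were wild-type untreated (WT untreated), knockout untreated (KO untreated), wild-type given dextran sodium sulfate (WT DSS) and knockout given it (KO DSS). DSS is a polymer that injures the colon epithelium, and it was given at 3% for 3 days. The sources used here do not give strain, age, sex or the form of the deletion. It is also not stated that each library is a mouse of its own, so p-values measure only the spread between these libraries, which may be technical.

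Enterocytes take up fatty acids and monoacylglycerol from the gut lumen, carry them on fatty acid binding proteins and join them again to triglyceride in the endoplasmic reticulum. Microsomal triglyceride transfer protein loads the triglyceride onto apolipoprotein B, and the particle leaves the cell as a chylomicron with other apolipoproteins on its surface. The small intestine does most of this work, and the colon meets little dietary fat.

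Values are RPKM, reads scaled by gene length and by library depth. The deposited values correspond to 20608073 to 26840859 reads in the untreated libraries and 12622406 to 16708090 in the DSS libraries. AA467197, the mouse gene of C15ORF48, had 434 ± 7.11 RPKM in WT untreated and 4.68 ± 0.868 in KO untreated (SD, n = 3), and 429 ± 76.0 in WT DSS and 7.69 ± 1.36 in KO DSS, and was thus low in every KO library. Of 10 absorptive colonocyte markers, all were above 1 RPKM in at least 1 library, and Car1, a carbonic anhydrase, supplied 64.5% of their summed level. Of 12 markers of small intestinal enterocytes, Lct, Treh, Cyp3a11 and Slc2a2 were below 1 RPKM in all 12 libraries. The other 8 were at 1 RPKM or more in at least 3 DSS libraries, and Slc5a1 supplied 47.6% of the summed level. Of 7 adipocyte markers, Adipoq and Lep were at 0 in all 12, and Plin1 and Retn were below 1 RPKM. Group means ran from 2.97 to 8.83 RPKM for Cidec, 2.38 to 4.61 for Lipe and 0.354 to 1.02 for Cfd.

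The 2 intestinal fatty acid binding proteins of the set are encoded by Fabp2, the intestinal form, and Fabp1, the liver form. Fabp2 (ENSMUSG00000023057.5) lies on the plus strand of GRCm38 chromosome 3 (122895072 to 122899506), and Fabp1 (ENSMUSG00000054422.7) on the plus strand of chromosome 6 (71199827 to 71205023). Their promoters are shown because these paralogs stood far apart in level, while in both every KO DSS library was above every WT DSS library. The windows run from 250 bases before to 50 bases after the RefSeq start on build GRCm38.p6, chr3:122894822-122895121 for Fabp2 and chr6:71199629-71199928 for Fabp1, both on the plus strand. Capitals mark 3 motifs that were found there: TGACCT, which is AGGTCA read on the minus strand, CATAAA, which is TTTATG read on the minus strand, and TATAAA on the plus strand.
Fabp2 promoter: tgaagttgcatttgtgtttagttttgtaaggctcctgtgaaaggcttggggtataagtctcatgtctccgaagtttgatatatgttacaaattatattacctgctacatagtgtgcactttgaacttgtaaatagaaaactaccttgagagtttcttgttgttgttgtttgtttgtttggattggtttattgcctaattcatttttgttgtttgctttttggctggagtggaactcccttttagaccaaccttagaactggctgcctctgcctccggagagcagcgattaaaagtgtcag
Fabp1 promoter: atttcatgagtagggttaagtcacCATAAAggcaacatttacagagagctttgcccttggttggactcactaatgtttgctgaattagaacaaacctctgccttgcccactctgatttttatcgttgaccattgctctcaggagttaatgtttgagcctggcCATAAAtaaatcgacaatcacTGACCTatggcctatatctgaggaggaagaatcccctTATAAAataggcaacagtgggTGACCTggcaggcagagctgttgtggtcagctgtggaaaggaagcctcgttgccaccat

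The 6 motifs searched on both strands were AGGTCA, a half-site of nuclear receptors, the direct repeat of AGGTCA with 1 base between (DR1), CAAAGTCCA for HNF4, AGATAA for GATA factors, TTTATG for CDX factors, and TATAAA, the TATA box. Overlapping matches were allowed. The Fabp2 window held none of these exact strings. The Fabp1 window held AGGTCA starting 67 and 9 bases before the start, TTTATG 226 and 88 bases before it, and TATAAA 30 bases before it. Promoters were matched for 7 of the 10 genes, Fabp1, Fabp2, Apoa1, Apoa4, Apob, Mttp and Cd36. Among these 7, AGGTCA and TTTATG were each found in Fabp1 and Cd36, and TATAAA in Fabp1 and Apob. Of 32851 RefSeq promoters of the same length, 16.3% held AGGTCA, 11.9% TTTATG, 13.6% TATAAA, 11.2% AGATAA, 0.475% CAAAGTCCA and 0.0396% the direct repeat. Such matches are descriptions of the letters and not of binding.

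Fabp2 was by far the most abundant of the 10 genes, with a mean of 669 RPKM over the 12 libraries, rank 61 of 23790 genes. Dgat2 (37.7 RPKM), Dgat1 (22.1), Apob (11.9), Mogat2 (3.43), Fabp1 (1.26), Mttp (1.06), Apoa1 (0.489), Cd36 (0.0654) and Apoa4 (0.0189) followed in the order of mean RPKM. The lowest Fabp2 library (305 RPKM) was above the highest Dgat2 library (52.5), and the lowest Apob library (6.83) was above the highest Mogat2 library (4.45). The ranges of Dgat2 and Dgat1, of Dgat1 and Apob, and of each neighbouring pair from Mogat2 down to Apoa4 overlapped. The ratio of group mean RPKM of Fabp2 to Fabp1 was 1558 in WT untreated, 1029 in KO untreated, 443 in WT DSS and 282 in KO DSS.

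**Figure D1:**
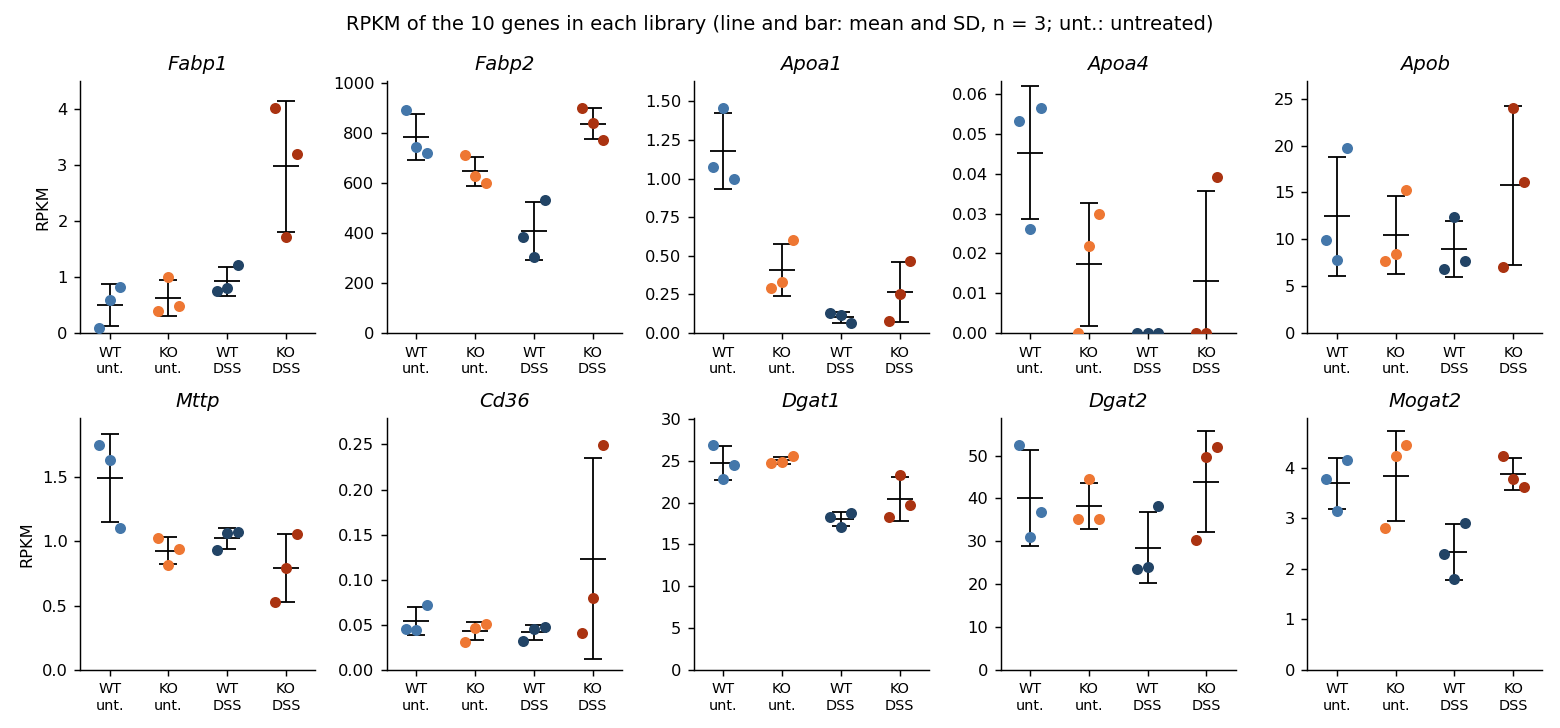
RPKM of each of the 10 genes (vertical axes, each from 0) in the 4 groups, 1 point per library, with the group mean and SD as line and bar (n = 3; unt. is untreated). Fabp2 runs from 305 to 899 RPKM and its 3 WT DSS points lie lowest, while the Apoa4 and Cd36 axes span less than 1 RPKM.

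Fabp2 differed between KO and WT by opposite signs in untreated and DSS-treated mice. In WT untreated it had 891, 743 and 719 RPKM, and in KO untreated 712, 626 and 601. In WT DSS it had 385, 305 and 534 RPKM, and in KO DSS 899, 839 and 773. The KO libraries were thus all below WT when untreated and all above WT under DSS, and the WT DSS libraries were lower than every other library.

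In untreated mice the Fabp2 difference was small, 784 ± 93.1 RPKM in WT and 646 ± 58.1 in KO, and it did not pass the test over all genes (log2 fold change −0.28, SE 0.12, limma adjusted p = 0.544). Under DSS the means were 408 ± 116 and 837 ± 63.4 RPKM, 2.05-fold higher in KO, with a log2 fold change of 1.07 (SE 0.23, 95% confidence interval 0.56 to 1.58). This also missed the threshold of 0.05 (limma adjusted p = 0.0753), but passed where all 12 libraries shared the estimate of spread (limma adjusted p = 0.0124). Over all genes, that fit called 623 under DSS, against 84 in the main fit. The authors' deposited table gives Fabp2 under DSS a log2 fold change of 1.04 with a false discovery rate of 0.0217, and in untreated mice −0.28 with 0.933. Without WT DSS replicate 3, the highest WT DSS library, the DSS log2 fold change was 1.28 and passed (limma adjusted p = 0.0493). It did not pass in the other 5 leave-outs (0.88 to 1.13, limma adjusted p = 0.0606 to 0.316).

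The change between these differences, KO against WT under DSS minus KO against WT untreated, was 1.35 on the log2 scale for Fabp2 (SE 0.26, 95% confidence interval 0.78 to 1.91) and passed over all genes (limma adjusted p = 0.0356). Fabp2 was the 1 gene called of the 8 of the set that were tested, against 1.4% of 11306 genes in either direction and 0.743% higher. The call held on leaving out WT DSS replicate 3 and on leaving out either KO DSS replicate 1 or 2. It was lost without each other library, namely WT untreated replicates 1, 2 and 3, KO untreated replicates 2, 4 and 5, WT DSS replicates 1 and 2 and KO DSS replicate 3, with values of 1.16 to 1.42 and limma adjusted p = 0.0591 to 0.0976. The untreated and DSS libraries stand in separately normalised tables with different replicate numbers, so DSS and a batch particular to a table cannot be told apart in this term.

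The summed level of absorptive colonocyte markers, like Fabp2, was lowest in WT DSS, but the single markers differed from each other. Their summed level was 13386 to 19642 RPKM in WT untreated, 14458 to 18346 in KO untreated, 6325 to 12162 in WT DSS and 16552 to 19109 in KO DSS. All 10 had a log2 fold change above 0 under DSS, against 49.2% of all genes, with a median of 0.34. Car1 (1.29), Guca2a (0.75) and Krt20 (0.71) had the largest, while Car4 (0.08), Slc26a3 (0.08) and Aqp8 (0.02) lay close to 0. None of the 10 passed by limma or limma voom, against 0.764% of all genes by limma. Of the 10, 4 had an unadjusted p under 0.05, against 18.7% of all genes. As a share of this sum, Fabp2 was 4.74 ± 0.731%, 4.02 ± 0.799%, 4.48 ± 0.310% and 4.73 ± 0.613% in the same order of groups (SD, n = 3). Without Car1, a choice made after the values were seen, Fabp2 was 14.7 ± 1.72%, 11.4 ± 1.20%, 9.63 ± 0.714% and 13.7 ± 0.834% of the other 9 markers. These 9 summed to 4811 to 5633 RPKM in WT untreated and 5584 to 5775 in KO untreated, where Fabp2 was lower. Under DSS they summed to 3005 to 5369 RPKM in WT and 5742 to 6583 in KO. In these bulk libraries fewer cells of a type and less RNA per cell cannot be told apart.

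**Figure D2:**
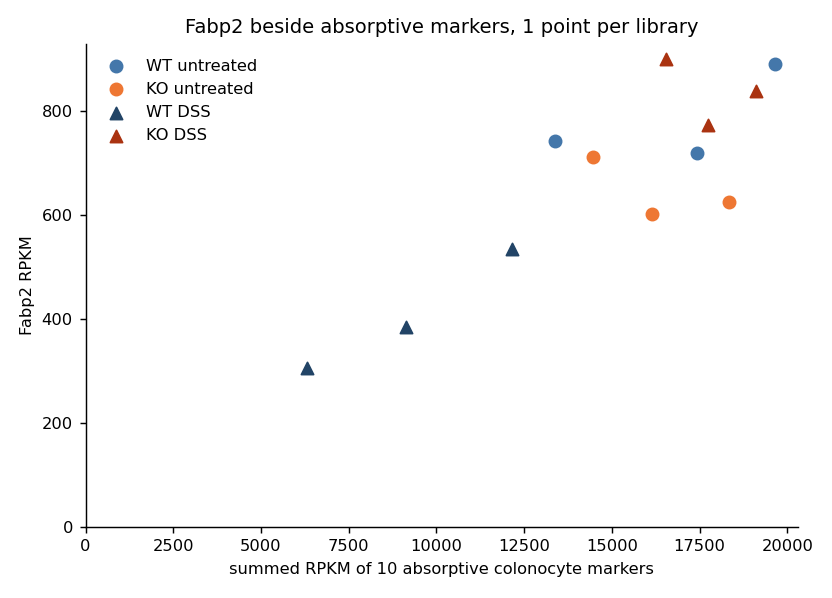
Fabp2 RPKM (vertical axis) against the summed RPKM of 10 absorptive colonocyte markers (horizontal axis), 1 point per library, with circles for untreated and triangles for DSS. The 3 WT DSS libraries lie lowest on both axes, at 305 to 534 RPKM of Fabp2 and 6325 to 12162 RPKM of markers.

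Other features moved with the DSS comparison too. Summed pan-leukocyte markers were 18.4 to 22.5 RPKM in WT DSS and 23.2 to 41.0 in KO DSS, and none was at 0 throughout. Of the 7 tested, 7 were above 0, against 49.2% of all genes. None was called by limma or limma voom, against 0.764% by limma, and 4 had an unadjusted p under 0.05, against 18.7%. Macrophage markers summed to 24.0 to 30.6 and 27.5 to 42.1 RPKM, with C1qb, C1qc, Csf1r and Adgre1 below 1 RPKM in all 12 libraries. Of the 4 tested, 3 were above 0, against 49.2% of all genes. Of these 4, 1 passed, against 0.764% of all genes. It was C1qa (log2 fold change 1.71, limma adjusted p = 0.034), with 0.167 ± 0.142 RPKM in WT DSS and 3.01 ± 1.67 in KO DSS. Since C1qa passed the filter through its KO libraries alone, it had to differ in that direction. Lyz2 had 1.09, Cd14, which supplied 68.9% of the sum, 0.10 and Mrc1 −0.20. Small intestinal enterocyte markers summed to 179 to 193 RPKM in WT untreated, 141 to 172 in KO untreated, 126 to 146 in WT DSS and 149 to 178 in KO DSS. Of the 8 tested under DSS, 6 were above 0, against 49.2% of all genes, and 1 passed, against 0.764%. It was Slc10a2, the ileal bile acid transporter (log2 fold change 1.06, limma adjusted p = 0.037). Slc5a1, which supplied 47.6% of the sum, had −0.23 and Anpep had −0.36. Log2 fold changes under DSS also followed gene length, with a median of 0.26 in the shortest 10% of genes (median length 868 bases) and −0.25 in the longest (7908 bases). With that trend taken out, Fabp2 (965 bases) had 0.83 (limma adjusted p = 0.0309) and Fabp1 (512 bases) 0.69 (limma adjusted p = 0.0441), so both passed. Over all genes, that run called 295, against 84 in the main fit. The part of the leukocyte, macrophage and small intestinal marker levels in the results was not tested.

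Fabp1, whose product binds fatty acids and other hydrophobic ligands, was near the limit of detection. WT untreated had 0.0867, 0.596 and 0.827 RPKM, from 1, 7 and 9 reads, and KO untreated had 0.398, 1.001 and 0.485, from 5, 14 and 5 reads. WT DSS had 0.741, 0.807 and 1.21 RPKM and KO DSS had 4.01, 1.71 and 3.19, from 6, 7 and 10 and from 26, 14 and 25 reads. The untreated groups overlapped, and all KO DSS libraries were above all WT DSS libraries.

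Fabp1 entered the DSS test only because the KO libraries exceeded 1 RPKM. Its mean was 0.921 ± 0.256 RPKM in WT DSS and 2.97 ± 1.17 in KO DSS, 3.23-fold, with a log2 fold change of 1.01 on the log2(RPKM + 1) scale (SE 0.22, limma adjusted p = 0.0863). That scale understates the change of low genes, and with a pseudocount of 0.1 the value was 1.54. The difference passed without KO DSS replicate 2, the lowest KO DSS library (1.26, limma adjusted p = 0.0281), and in the fit over 12 libraries (limma adjusted p = 0.034). Over all genes, the latter fit called 623, against 84 in the main fit. The difference of differences was 0.88 (limma adjusted p = 0.191).

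Among the other fatty acid binding proteins, Fabp6, the ileal bile acid binder, was the most abundant after Fabp2. It had 23.8 ± 8.71 RPKM in WT untreated and 10.6 ± 1.06 in KO untreated (log2 fold change −1.04, limma adjusted p = 0.459), and 10.2 ± 3.23 in WT DSS and 12.8 ± 2.29 in KO DSS. Fabp5 ran from 0.991 to 2.84 RPKM. Fabp3, Fabp4, Fabp7, Fabp9 and Fabp12 were below 1 RPKM in every library, and Fabp9 had no read.

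Of the lipoprotein genes, Apob, the structural protein of the chylomicron, was well expressed and had the largest SD within groups of the 8 genes tested, on the log2(RPKM + 1) scale. Apob (ENSMUSG00000020609.14, GRCm38 chromosome 12 from 7977648 to 8016835, plus strand) had 9.88, 7.76 and 19.7 RPKM in WT untreated and 7.71, 8.48 and 15.2 in KO untreated. Under DSS it had 6.83, 12.4 and 7.70 RPKM in WT and 7.09, 24.0 and 16.1 in KO. Every group held both low and high libraries, and the groups overlapped in both comparisons.

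That SD was 0.61, at the 99.5 percentile of 11306 genes, whose median was 0.16. The highest library of a group exceeded the lowest by 1.82-fold (WT DSS) to 3.39-fold (KO DSS), which the low genes Fabp1 and Apoa1 surpassed (up to 9.54-fold and 5.79-fold). With 1248 to 5827 Apob reads per library, counting error is small beside this spread. The KO against WT log2 fold change was −0.19 untreated (SE 0.34, limma adjusted p = 0.869) and 0.64 under DSS (SE 0.37, 95% confidence interval −0.20 to 1.48, limma adjusted p = 0.354). Without KO DSS replicate 1 the DSS value was 1.09 and passed (limma adjusted p = 0.0471), and without KO DSS replicate 2 it was 0.28 (limma adjusted p = 0.589). With the gene length trend taken out it was 1.01 (limma adjusted p = 0.071).

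Mttp encodes the transfer protein that lipidates apolipoprotein B. It had 1.75, 1.63 and 1.11 RPKM in WT untreated and 1.03, 0.815 and 0.939 in KO untreated, with every KO library below every WT library. Under DSS it had 0.930, 1.07 and 1.07 RPKM in WT and 0.531, 0.789 and 1.06 in KO, and the groups overlapped. The log2 fold change was −0.37 untreated (SE 0.12, limma adjusted p = 0.51) and −0.18 under DSS (SE 0.15, limma adjusted p = 0.493), so neither passed. Untreated, Mttp reached the filter on low values only with its WT libraries. Mttp (ENSMUSG00000028158.14, GRCm38 chromosome 3 from 138089854 to 138144968, minus strand) overlaps Trmt10a on the other strand. Trmt10a had 0.753 to 1.34 RPKM, and the sources used here do not say how the authors' counting used strand.

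P4hb, protein disulfide isomerase and the small subunit of the transfer protein complex, was far more abundant than Mttp per length, at 332 to 567 RPKM. It had 377 ± 51.7 RPKM in WT DSS and 467 ± 89.8 in KO DSS and did not pass (limma adjusted p = 0.407).

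Apoa1 encodes the main protein of high-density lipoprotein, which the small intestine also secretes. It had 1.08, 1.46 and 1.0002 RPKM in WT untreated (24, 33 and 21 reads) and 0.289, 0.333 and 0.603 in KO untreated (7, 9 and 12 reads). WT DSS had 0.128, 0.120 and 0.0629 RPKM and KO DSS had 0.0800, 0.253 and 0.463, from 1 to 7 reads per library. WT untreated was thus above all 9 other libraries, and the DSS groups overlapped.

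Apoa1 passed the filter on low values in the untreated comparison through the 3 WT libraries alone, the lowest of them at the limit of 1 RPKM. There the mean was 1.18 ± 0.244 RPKM in WT and 0.408 ± 0.170 in KO, and the log2 fold change of −0.63 (SE 0.13) did not pass (limma adjusted p = 0.459). The authors' deposited table gives −1.55 with a false discovery rate of 0.621. The difference of differences was 0.82 (SE 0.19, limma adjusted p = 0.0614), and it passed without KO DSS replicate 1 (0.93, limma adjusted p = 0.0241). It did not pass in the other 8 leave-outs in which Apoa1 was tested (0.71 to 0.91, limma adjusted p = 0.065 to 0.148). It was 2.07 with a pseudocount of 0.1 (limma adjusted p = 0.0856), 2.57 by limma voom (adjusted p = 0.0798) and 0.65 with the gene length trend taken out (limma adjusted p = 0.174). Under DSS Apoa1 was below the filter. Apoa1 (ENSMUSG00000032083.8) lies on the plus strand of GRCm38 chromosome 9 (46228580 to 46230466).

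Apoa4, an apolipoprotein that the fed small intestine secretes on chylomicrons, was barely detected. Its 12 libraries held 8 reads in all, 5 in WT untreated, 2 in KO untreated, none in WT DSS and 1 in KO DSS. In the libraries at 0, such a count allows up to 3 reads, or 0.0734 to 0.142 RPKM depending on depth, which covers counting error only, and no library exceeded 0.0565 RPKM. Apoa4 was therefore in no test, and a difference between groups was not detectable at this depth. Apoc3 and Apoa5, its neighbours in the same gene cluster, were at most 0.318 and 0.116 RPKM.

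Cd36, a fatty acid translocase of the brush border, was also close to undetected, with 14 reads in WT untreated, 12 in KO untreated, 8 in WT DSS and 22 in KO DSS. Its highest library, KO DSS replicate 3, had 0.250 RPKM from 15 reads, and every other library had 0.0311 to 0.0797. It was below the filter in each comparison. Other uptake proteins were present. Slc27a4, the fatty acid transport protein of enterocytes, had 53.6 ± 8.36 RPKM in WT untreated, 51.0 ± 9.71 in KO untreated, 29.4 ± 3.31 in WT DSS and 41.7 ± 0.390 in KO DSS (DSS log2 fold change 0.49, limma adjusted p = 0.107). Scarb1, a lipoprotein and sterol receptor, ran from 5.49 to 11.2 RPKM, Slc27a1 from 2.98 to 10.8, and Slc27a3 stayed at or below 0.756.

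Triglyceride is built by Mogat2, which adds an acyl chain to monoacylglycerol, and by Dgat1 and Dgat2, which complete the triglyceride. Dgat2 (ENSMUSG00000030747.5) and Mogat2 (ENSMUSG00000052396.7) lie near each other on the minus strand of GRCm38 chromosome 7, from 99153658 to 99182719 and from 99219084 to 99238619. Dgat1 (ENSMUSG00000022555.12) lies on the minus strand of chromosome 15 (76502015 to 76511953).

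Dgat1 varied least. It had 26.9, 22.8 and 24.5 RPKM in WT untreated, 24.8, 24.9 and 25.6 in KO untreated, 18.3, 17.1 and 18.8 in WT DSS and 18.3, 23.3 and 19.7 in KO DSS. KO and WT overlapped in both comparisons, with log2 fold changes of 0.02 untreated (95% confidence interval −0.16 to 0.21, limma adjusted p = 0.948) and 0.16 under DSS (−0.12 to 0.45, limma adjusted p = 0.482). The untreated sign turned without WT untreated replicate 2 (−0.03) and with the gene length trend taken out (−0.03).

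Dgat2 had 52.5, 30.9 and 36.8 RPKM in WT untreated, 35.2, 44.4 and 35.2 in KO untreated, 23.4, 24.0 and 38.1 in WT DSS and 30.3, 49.5 and 51.9 in KO DSS. The groups overlapped in both comparisons. Its log2 fold change was −0.04 untreated (SE 0.18, limma adjusted p = 0.959) and 0.60 under DSS (SE 0.24, 95% confidence interval 0.06 to 1.15, limma adjusted p = 0.237).

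Mogat2 had 3.78, 3.15 and 4.14 RPKM in WT untreated, 2.81, 4.23 and 4.45 in KO untreated, 2.28, 1.80 and 2.91 in WT DSS and 4.24, 3.78 and 3.62 in KO DSS. The untreated groups overlapped, whereas every KO DSS library was above every WT DSS library. The log2 fold change was 0.03 untreated (SE 0.15, limma adjusted p = 0.962) and 0.56 under DSS (SE 0.15, 95% confidence interval 0.21 to 0.91, limma adjusted p = 0.129), and neither passed. Mogat1, the other monoacylglycerol acyltransferase gene, was at most 0.0542 RPKM.

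**Figure D3:**
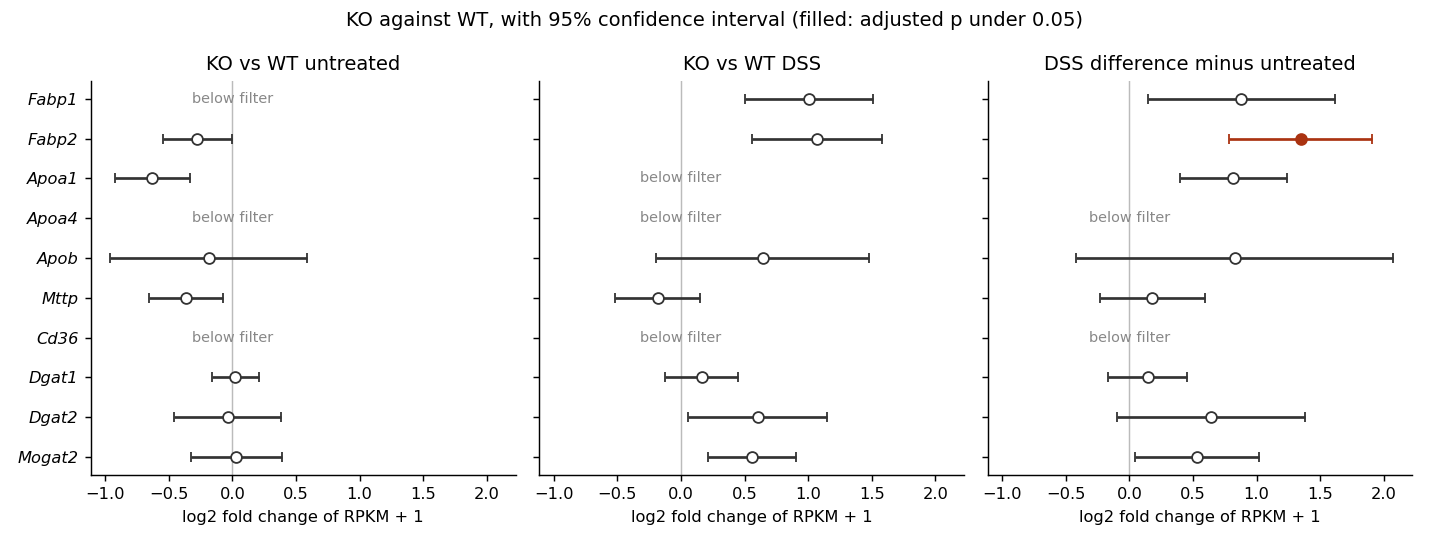
Log2 fold change of RPKM + 1, KO against WT (horizontal axis), with its 95% confidence interval, for each gene (vertical axis) untreated, under DSS, and as the DSS difference minus the untreated one. The filled point, Fabp2 at 1.35 in the last panel, is the one value that passed, and genes below the filter carry no point.

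Across the set, the untreated comparison tested 7 of the 10 genes and called none with limma, against 0.0181% of the 11072 genes tested. At an unadjusted p under 0.05 there were 3 (Fabp2, Apoa1 and Mttp), against 9.09% of genes, and limma voom on the recovered reads called none. In these 3 genes every KO library was below every WT library, as in 7.68% of genes tested, and the opposite held for none of the 7 and for 8.32% of genes. Of the 7, 2 (Dgat1 and Mogat2) had a log2 fold change above 0, against 53.3% of genes, and the median was −0.19, against 0.01 for all genes. Since Apoa1 passed the filter through its WT libraries alone, it had to differ in that direction. Mttp also reached the filter there only with its WT libraries, and a high level in WT pushes its value below 0. Fabp1, Apoa4 and Cd36 were below the filter.

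The DSS comparison also tested 7 genes and called none with limma, against 0.764% of 10990 genes. At an unadjusted p under 0.05 there were 4 (Fabp1, Fabp2, Dgat2 and Mogat2), against 18.7% of genes, and limma voom called none, with an adjusted p of 0.0538 for Fabp2. Every KO library was above every WT library in 3 of the 7 (Fabp1, Fabp2 and Mogat2), against 11.1% of genes, and below in none, against 11.9%. Of the 7, 6 had a log2 fold change above 0, against 49.2% of genes, and Mttp was the exception. The median was 0.60, against −0.01 for all genes. Since Fabp1 passed the filter through its KO libraries, it had to differ in that direction.

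In the difference of differences all 8 genes tested were above 0, against 49.6% of genes, with a median of 0.73 against 0.00. Apoa1 passed the filter there only through WT untreated, and a high level in that group puts its value above 0. Fabp1 reached the filter there only with its KO DSS libraries, and a high level in KO DSS also pushes its value above 0. Setting levels side by side without a test, WT DSS had the lowest group mean in 6 of the 8 (Fabp2, Apoa1, Apob, Dgat1, Dgat2 and Mogat2), and in 26.05% of 11306 genes. Fabp1 had its lowest mean in WT untreated and Mttp in KO DSS.

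Of 64 other genes of lipid handling, 51 were tested under DSS and 1 was called, against 0.764% of all genes. It was Ces1f, a carboxylesterase with 52.3 ± 9.58 RPKM in WT DSS and 103 ± 13.5 in KO DSS (log2 fold change 0.97, SE 0.17, limma adjusted p = 0.0412). Ces1f had 88.0 ± 9.28 RPKM in WT untreated and 98.7 ± 16.4 in KO untreated. Set side by side without a test, WT DSS was thus its lowest group, and KO DSS lay near the untreated levels. Leaving out WT DSS replicate 1, WT DSS replicate 2 or KO DSS replicate 3 ended the call (0.86 to 0.94, limma adjusted p = 0.199 to 0.219). Of the 51, 31 were above 0 (60.8%, against 49.2% of all genes), with a median of 0.09, against −0.01. An unadjusted p under 0.05 was found for 19 of the 51, a higher share than the 18.7% of all genes. In untreated mice none of 52 was called by limma or by limma voom, against 0.0181% of all genes by limma. Of these 52, 6 had an unadjusted p under 0.05, against 9.09% of all genes. Above 0 were 24 (46.2%, against 53.3%), with a median of −0.01.

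In the difference of differences 3 of 52 were called, against 1.4% of all genes. Of the 52, 33 were above 0 (63.5%, against 49.6% of all genes), and the median was 0.13. An unadjusted p under 0.05 was found for 19 of the 52, a higher share than the 19% of all genes. Lpin2, a phosphatidate phosphatase of triglyceride synthesis, had 15.4 ± 2.83 and 11.2 ± 1.54 RPKM in WT and KO untreated and 7.81 ± 0.364 and 12.4 ± 1.20 in WT and KO DSS (1.02, SE 0.19, limma adjusted p = 0.0356). Slc27a2, a very long-chain acyl-CoA synthetase and transporter, had 4.56 ± 0.950 and 3.65 ± 0.346 RPKM untreated and 1.56 ± 0.477 and 3.85 ± 0.887 under DSS (1.17, SE 0.25, limma adjusted p = 0.041). Gpam, the mitochondrial enzyme that starts glycerolipid synthesis, had the opposite sign, with 11.8 ± 0.330 and 12.5 ± 1.28 RPKM untreated and 9.93 ± 2.16 and 5.46 ± 0.376 under DSS (−0.81, SE 0.18, limma adjusted p = 0.0493). These calls depended on single libraries. Lpin2 kept its call only without WT untreated replicate 2, WT DSS replicate 3, KO DSS replicate 1 or KO DSS replicate 2, and lost it in 8 of 12 leave-outs (0.91 to 1.11). Slc27a2 kept its call only on leaving out WT untreated replicate 2, KO DSS replicate 1 or WT DSS replicate 3, and lost it in 9 (1.03 to 1.30). Gpam kept its call only on leaving out KO DSS replicate 1 or WT DSS replicate 3, and lost it in 10 (−0.89 to −0.66).

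Genes of chylomicron export and editing, chosen as examples after their values were seen, did not pass under DSS. Sar1b, the GTPase of chylomicron vesicles, had 83.2 ± 13.6 RPKM in WT DSS and 134 ± 23.6 in KO DSS (limma adjusted p = 0.116). Pla2g12b, which takes part in lipoprotein lipidation, had 2.53 ± 1.52 and 6.89 ± 1.71 RPKM (limma adjusted p = 0.0952). Apobec1, which edits Apob RNA, had 21.3 ± 4.87 and 31.9 ± 6.70 RPKM (limma adjusted p = 0.206). Others of this kind on the list lay the other way or close to 0, with log2 fold changes of −0.17 for Tm6sf2, −0.10 for Sar1a and −0.01 for Surf4, a cargo receptor of lipoproteins.

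Of 28 regulators of intestinal lipid genes, 26 were tested under DSS, 9 were above 0, against 49.2% of all genes, and the median was −0.17. None was called by limma or limma voom, against 0.764% of all genes by limma, and 11 had an unadjusted p under 0.05, against 18.7%. The 3 with the smallest p were Nr1h4, the bile acid receptor FXR (52.5 ± 8.74 RPKM in WT DSS and 79.0 ± 4.48 in KO DSS, limma adjusted p = 0.109), Creb3l3, an activator of apolipoprotein genes (0.702 ± 0.313 and 2.18 ± 0.893, limma adjusted p = 0.119), and Srebf1, a regulator of fatty acid synthesis (16.9 ± 0.880 and 12.3 ± 1.35, limma adjusted p = 0.148). Creb3l3 reached the filter only with its KO DSS libraries, and a high level there pushes its value above 0. Hnf4a, a regulator of enterocyte lipid genes named after its values were seen, had 249.7 ± 13.2 and 234 ± 47.2 RPKM. Untreated, 16 of 27 were above 0, against 53.3% of all genes, with a median of 0.01. In the difference of differences 9 of 27 were above 0, against 49.6%, with a median of −0.22. None was called in either by limma or limma voom, against 0.0181% and 1.4% of all genes by limma. An unadjusted p under 0.05 was found for 7 and 8, against 9.09% and 19%.

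Genes that respond to PPAR, a receptor family for fatty acids, were set beside Fabp1 and Cd36, which are also targets. Of 20, 19 were tested and 18 were above 0 under DSS, against 49.2% of all genes, with a median of 0.14. None was called by limma or limma voom, against 0.764% of all genes by limma, and 3 had an unadjusted p under 0.05, against 18.7%. Vnn1, a pantetheinase, had 4.54 ± 1.54 RPKM in WT DSS and 8.97 ± 2.39 in KO DSS (limma adjusted p = 0.133). Slc25a20, the mitochondrial carnitine carrier, had 143 ± 34.2 and 224 ± 38.9 RPKM (limma adjusted p = 0.162). Untreated, 6 of 19 were above 0, against 53.3% of all genes, with a median of −0.03. In the difference of differences 16 of 19 were above 0, against 49.6%, with a median of 0.21. None was called in either by limma or limma voom, against 0.0181% and 1.4% of all genes by limma. An unadjusted p under 0.05 was found for 1 and 4, against 9.09% and 19%.

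**Figure D4:**
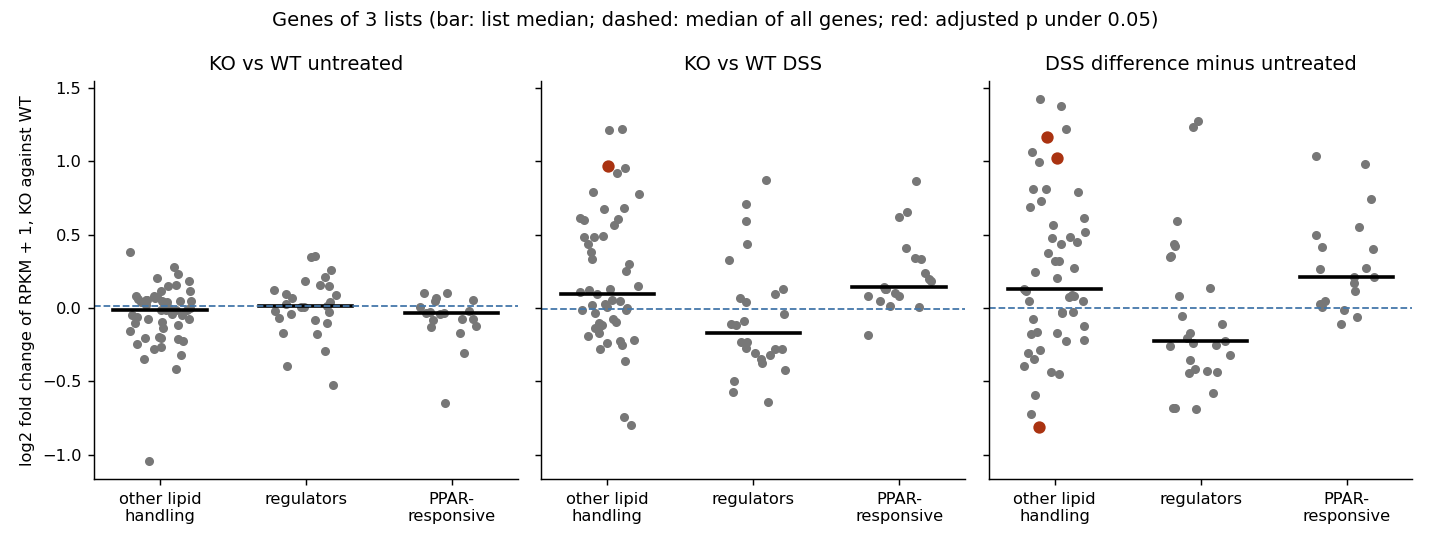
Log2 fold change of RPKM + 1, KO against WT (vertical axis), of the tested genes of 3 lists (horizontal axis) untreated, under DSS and as the DSS difference minus the untreated one, 1 point per gene. Bars are list medians, the dashed line is the median of all genes, and red points passed. Ces1f is the red point of the DSS panel, and Lpin2, Slc27a2 and Gpam those of the last.

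The genes whose pattern was most like the mean of the 8 tested genes were sought among 10779 others, by Pearson r over the 12 libraries after centring within each table. They were Enpep, a brush border aminopeptidase (r = 0.97), Scp2, a sterol carrier protein (0.96), Arl14, a small GTPase (0.96), Maoa, a monoamine oxidase (0.96), and Cyp2c65, a cytochrome P450 (0.96). The 8 genes did not share 1 pattern themselves. Their pairwise r, taken in the same way, ran from −0.54 (Fabp1 with Mttp) to 0.79 (Dgat1 with Dgat2). The points share libraries, groups and depth with the genes they are compared with, so these are descriptions with no test. Enpep had 5.37 RPKM in WT untreated, 3.04 in KO untreated, 0.903 in WT DSS and 4.80 in KO DSS. Cyp2c65 had 162, 136, 89.9 and 217 RPKM in the same order.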

How the data were processed

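Polyadenylated RNA from mouse colonocytes was sequenced as stranded libraries made with a KAPA kit, per the labels' protocols. The labels' treatment text names DSS for every library, while the treatment field reads none for the untreated ones; the titles and that field set the groups. Per the submitters' processing notes, the authors used TopHat2 2.1.1 and edgeR 3.30.3 on GRCm38 and mm10. The sources used here name no read counter or annotation. The deposited values are RPKM per library, per the file headers. The authors' log2 fold change, p-value and false discovery rate stand beside them in the deposited tables. There are 2 tables of 23794 lines. Leaving out 4 lines with repeated names gave 23790 genes. No sample column was left unmapped.

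Whole reads were recovered from the RPKM for 100% of the 18398 genes with reads, to within 0.02 reads, and 5392 genes had none. Scaling factors implied by the authors' RPKM ran from 0.956 to 1.03. Replicates differed beyond sampling noise (chi-square per degree of freedom 22.9 to 86.5).

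The design planned a count test but named a fallback for RPKM, which was used. Values were taken as log2(RPKM + 1) and fitted with limma 3.58.1 (R 4.3.3, trended variance), for genes at 1 RPKM or more in at least 3 of the libraries entering a fit. The 2-sided p-values were adjusted by Benjamini-Hochberg over every gene tested and called under 0.05. Each table gave its own KO against WT comparison, and the difference of differences was fitted over the 12 libraries. DSS was not tested against untreated, because the tables were normalised separately. The alternatives were a pseudocount of 0.1, no filter, median-of-ratios rescaling, a gene length trend taken out (lowess span 0.3), one fit over 12 libraries, a replicate block, each library left out, and limma voom on the recovered reads, the last chosen after seeing the data. The fits were also run on simulated counts with the same spread setting for every gene and no gene length trend, unlike these data. That run therefore does not show how the fits behave on these data. Positions are from GENCODE vM21 on GRCm38 and promoters from RefSeq on GRCm38.p6.

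The 10 genes, the lists and the tests were chosen with earlier results of these data known. Named were the 10 genes, each called gene of a list or else its 3 smallest p under DSS, partners by role, and the 5 genes most like the set among those with a mean of 50 or more reads. One gene that this rule takes is not reported here.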

Additional observations from a re-analysis of the deposited data

Results flagged for a closer look

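Fabp2 stood out because KO stood to WT otherwise under DSS than in untreated mice, with a difference of differences of 1.35 on the log2 scale (SE 0.26, limma adjusted p = 0.0356). The mean went from 784 RPKM in WT to 646 in KO untreated, and from 408 in WT to 837 in KO under DSS. All 3 KO libraries were on the lower side untreated and all 3 on the higher side under DSS.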

How the results depend on the processing

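In untreated mice 0 of the 10 genes were called under each alternative run. Under DSS 0 were called, but 2 (Fabp1 and Fabp2) with the gene length trend taken out, 2 in one fit over 12 libraries and 2 with the replicate block, and 0 to 1 with a library left out. In the difference of differences 1 was called, but 0 with no filter on low values (Fabp2 1.35, limma adjusted p = 0.0817) and 0 to 2 with a library left out. With the length trend out, the untreated values of Dgat1 (−0.0275) and Mogat2 (−0.0199) turned sign. With a library left out, untreated values ran from −0.0335 to 0.0807 for Dgat1, −0.20 to 0.17 for Dgat2, −0.0662 to 0.19 for Mogat2 and −0.47 to 0.18 for Apob. The cause was not tested. Over all genes, the untreated calls went from 2 to 1 with no filter and in one fit, and to at most 6 with a library left out. The DSS calls went from 84 to 1 with no filter, 295 with the length trend out, 623 in one fit, 398 with the replicate block and 1 to 364 with a library left out. The calls of the difference of differences went from 158 to 4 with no filter, 538 with the length trend out and 1 to 433 with a library left out. The Ces1f, Lpin2, Slc27a2 and Gpam calls were also lost with no filter, and that of Gpam under median-of-ratios rescaling.

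No label says what replicate numbers mark. Same-numbered DSS libraries correlated in their deviations from the group means at −0.11, 0.36 and 0.13, and 1 of 3 WT DSS libraries correlated best with its own number, so the numbers were not taken as pairs. With the block, Fabp1 and Fabp2 under DSS had limma adjusted p = 0.0187 and 0.0353. The untreated groups share only replicate number 2, so no block could be fitted there. The planned edgeR and DESeq2 alternatives were not run, since the deposited unit is not counts. Depth limits Apoa4 and Cd36 in all groups, and Fabp1 and Apoa1 in most.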
